A study of Mus musculus with 3 samples.

Results

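Dividing cells of every class were described in 3 mouse lungs at P14, in the alveolar stage of lung growth. The animals were wild-type C57BL/6 pups that breathed room air (RA) from P1 to P14. The series holds 1 scRNA-Seq library of dissociated whole lung per mouse (mice 2, 3, and 4), made with 10x v3 chemistry, which counts captured transcripts by unique molecular identifiers (UMIs). All 3 mice form 1 condition, without a transgene, a deletion, or a treatment, so no conditions were compared and the mouse is the replicate. Nothing in the labels says whether the pups shared a litter. The *p* values of permutation tests rest on the spread of shares or ratios between these 3 mice. Those of the gene tests (edgeR) rest on the spread between summed counts of these mice, estimated jointly over the classes. That spread also holds the sampling of cells, and the main fit has no term for the mouse. Values of mice 2, 3, and 4 are given in that order throughout.

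A cell was kept if it had 200 or more detected genes and no more than 20% mitochondrial UMIs. Dividing cells were chosen by their measured UMIs of *Mki67* and *Top2a*, of which a kept cell had to hold at least 4 together. This rule found 220 dividing cells among 7642. Each cell was given to the class with the most UMIs of a pair of genes: *Cdh5* and *Cldn5* for endothelial cells (ECs), *Epcam* and *Cdh1* for epithelial cells, *Col1a1* and *Col1a2* for stromal cells, and *Ptprc* and *Cd52* for immune cells. Of the dividing cells, 205 had a class (63 ECs, 44 epithelial, 19 stromal, and 79 immune cells), and 15 were tied, mostly because they held no UMI of any class gene. The rule itself fixes that *Mki67* and *Top2a* are high in these cells, so their values are given without a test.

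The libraries held 3034, 3135, and 3475 cells with 23744510, 22476491, and 25192427 UMIs, of which 2386, 2601, and 2655 cells were kept with medians of 7119, 4853, and 6453 UMIs. Pairs of libraries shared 5, 2, and 5 cell barcodes, and their summed counts were unlike beyond sampling noise (chi-square over degrees of freedom of 36.0 for mice 2 and 3, 8.68 for mice 2 and 4, and 29.9 for mice 3 and 4). Dividing cells were 2.89%, 2.88%, and 2.86% of the kept cells (2.88% ± 0.0151, SD, *n* = 3). Their makeup was less alike: ECs were 39.7%, 18.6%, and 34.7% of the dividing cells with a class, and immune cells 28.6%, 47.1%, and 38.9%. Among all cells with a class, mouse 3 likewise had the fewest ECs (20.8%, 11.7%, and 18.1%) and the most immune cells (32.3%, 58.3%, and 36.6%).

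A cell that commits to division passes from G1 into S phase, when DNA is copied, and then through G2 into mitosis, when the chromosomes are condensed, attached to the spindle, and separated. G1 cyclins with CDK4 and CDK6 release E2F factors from the retinoblastoma protein, and E2F factors switch on replication genes. Genes of G2 and mitosis are held down in G1 by the DREAM complex and are later switched on by B-MYB and FOXM1. The alveolar stage is a phase of rapid growth of the gas exchange surface, in which capillaries, septa, and epithelium expand together while leukocytes populate the lung.

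The 4 genes that mark the dividing cells lie on 3 chromosomes. *Mki67* (ENSMUSG00000031004, chr7:135689784-135716361, minus strand), whose protein coats mitotic chromosomes, and *Top2a* (ENSMUSG00000020914, chr11:98992943-99024189, minus strand), the topoisomerase that untangles sister chromatids, were the genes of the rule. *Cdk1* (ENSMUSG00000019942, chr10:69335146-69352938, minus strand), the kinase that drives entry into mitosis, and *Birc5* (ENSMUSG00000017716, chr11:117849251-117855743, plus strand), the survivin subunit of the chromosomal passenger complex, were not used by it. Positions are those of GENCODE M21 on GRCm38. *Mki67* overlaps *Gm45240* on the opposite strand, which is not among the genes counted. *Top2a* overlaps *Gm26394* on the opposite strand and *Gm23451* on the same strand. Reads of the opposite pairs could not be told apart without strand, and those of *Top2a* and *Gm23451* not even with it.

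Their promoters are shown because the dividing cells of every class held these transcripts together. Each runs from 250 bases before to 50 bases after the start in RefSeq (GRCm38.p6), on the gene's strand. *Dut*, which keeps uracil out of DNA and had the highest level of the replication genes in dividing cells (176 CPM, the mean over the 4 classes), is shown beside them. Capitals mark 3 sets of letters searched on both strands: CCAAT, the box read by NF-Y; TTTGAA, the cell cycle homology region read by DREAM; and TTTNNCGC, with CC, GG, CG, or GC at NN, as read by E2F factors. No base was in 2 matches.
Mki67: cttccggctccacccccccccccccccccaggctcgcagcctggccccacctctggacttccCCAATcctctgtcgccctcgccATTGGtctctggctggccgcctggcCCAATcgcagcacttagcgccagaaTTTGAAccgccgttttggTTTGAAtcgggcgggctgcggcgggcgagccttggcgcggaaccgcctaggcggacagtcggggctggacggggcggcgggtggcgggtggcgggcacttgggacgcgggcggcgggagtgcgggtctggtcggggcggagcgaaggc
Top2a: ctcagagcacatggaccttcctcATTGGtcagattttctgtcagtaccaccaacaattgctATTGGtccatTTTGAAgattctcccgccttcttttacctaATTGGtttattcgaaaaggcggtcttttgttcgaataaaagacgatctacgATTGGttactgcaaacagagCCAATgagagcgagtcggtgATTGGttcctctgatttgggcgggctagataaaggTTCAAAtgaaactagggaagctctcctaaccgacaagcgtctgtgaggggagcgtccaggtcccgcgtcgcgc
Cdk1: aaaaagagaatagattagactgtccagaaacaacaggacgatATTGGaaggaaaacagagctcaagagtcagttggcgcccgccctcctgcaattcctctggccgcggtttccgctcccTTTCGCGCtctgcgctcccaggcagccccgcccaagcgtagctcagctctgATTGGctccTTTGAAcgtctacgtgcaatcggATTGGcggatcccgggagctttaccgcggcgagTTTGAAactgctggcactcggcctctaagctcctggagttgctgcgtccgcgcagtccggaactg
Birc5: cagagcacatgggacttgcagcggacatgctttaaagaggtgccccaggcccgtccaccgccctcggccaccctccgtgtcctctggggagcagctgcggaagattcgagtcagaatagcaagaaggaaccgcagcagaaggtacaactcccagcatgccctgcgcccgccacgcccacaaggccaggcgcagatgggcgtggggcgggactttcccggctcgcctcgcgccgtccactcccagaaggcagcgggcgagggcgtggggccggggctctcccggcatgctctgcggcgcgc
Dut: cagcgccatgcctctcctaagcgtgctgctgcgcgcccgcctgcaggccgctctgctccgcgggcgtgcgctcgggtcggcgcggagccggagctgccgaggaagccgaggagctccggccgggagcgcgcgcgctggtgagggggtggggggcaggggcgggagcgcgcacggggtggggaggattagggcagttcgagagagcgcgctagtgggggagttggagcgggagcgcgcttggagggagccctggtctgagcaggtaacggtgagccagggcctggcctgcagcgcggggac
The *Mki67* promoter (chr7:135716330-135716629) held 3 CCAAT and 2 TTTGAA matches, and that of *Top2a* (chr11:99024140-99024439) held 6 and 2. The *Cdk1* promoter (chr10:69352863-69353162) held 3 CCAAT, 2 TTTGAA, and 1 TTTNNCGC match. In the promoters of *Birc5* (chr11:117848987-117849286) and *Dut* (chr2:125247265-125247564) these letters were not found. The *Dut* stretch begins after the start of the gene in GENCODE M21 (chr2:125247190, plus strand), so it holds no bases before that start. Among all 32851 promoters of the same length in the table, 37.4% held CCAAT, 17.9% TTTGAA, and 2.26% TTTNNCGC. For a list of 42 mitosis genes, 37 matched with 40 promoters, and 75% held CCAAT and 67.5% TTTGAA, whereas 2.5% held TTTNNCGC. For a list of 40 replication genes, 30 matched with 35 promoters, of which 31.4% held TTTNNCGC, 11.4% TTTGAA, and 54.3% CCAAT. A match of letters is a description and not a site of binding.

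The label of dividing cells was checked with the marker genes that the rule did not use. *Cdk1* was detected in 73.0% of the dividing ECs, 77.3% of the epithelial, 63.2% of the stromal, and 63.3% of the immune cells, against 3.25%, 1.52%, 2.57%, and 0.684% of the other cells of these classes. *Birc5* was detected in 76.2%, 75%, 57.9%, and 77.2% of the dividing cells and in less than 1% of the others in each class (0.994%, 0.592%, 0.941%, and 0.957%). At the edge of the rule, *Cdk1* was found in 6 of the 45 cells with 3 UMIs (13.3%) and 3 of the 19 cells with 4 UMIs (15.8%), and *Birc5* in 8.89% and 31.6%. Over all 205 dividing cells these shares were 69.3% and 74.6%. Neutrophils, typed by *Retnlg*, *Csf3r*, and *Mmp9*, leave the cycle before they enter blood and were read for free RNA at their own depth. Of 428, 1 held a UMI of *Mki67* or *Top2a* (0.234%), and 0 were called dividing, which allows a share of up to 0.701% of the cells pooled over mice (counting error only), at a median of 2179.5 UMIs. The 4 classes had higher medians, and free RNA at their depth was not measured.

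By the mean over mice, dividing cells were most frequent among ECs and least frequent among stromal cells. Among ECs, 25 of 446, 13 of 286, and 25 of 438 were dividing, which is 5.61% (exact binomial 95% CI 3.66–8.16), 4.55% (2.44–7.65), and 5.71% (3.73–8.31), with a mean of 5.29% ± 0.644 (SD, *n* = 3). Among epithelial cells, 13 of 440, 19 of 301, and 12 of 485 were dividing, or 2.95% (1.58–5.0), 6.31% (3.84–9.68), and 2.47% (1.28–4.28), with a mean of 3.91% ± 2.09. Mouse 3 stood above mice 2 and 4 in the epithelial class, and its value alone spread this class over the range of the ECs. Stromal cells had the lowest shares in every mouse: 7 of 569, 5 of 432, and 7 of 612, or 1.23% (0.496–2.52), 1.16% (0.377–2.68), and 1.14% (0.461–2.34), with a mean of 1.18% ± 0.0465, and of 0.709% with cells marked as doublets left out. Immune cells lay between, with 18 of 694, 33 of 1423, and 28 of 887, or 2.59% (1.54–4.07), 2.32% (1.60–3.24), and 3.16% (2.11–4.53), with a mean of 2.69% ± 0.427. These intervals cover counting error only. The place of stromal cells rested on the threshold: with at least 2 UMIs of the genes of the rule their mean share was 5.0% and that of immune cells 4.69%, and with at least 1 UMI after thinning to 2000 UMIs it was 4.38%, above the 3.72% of epithelial cells.

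**Figure D1:**
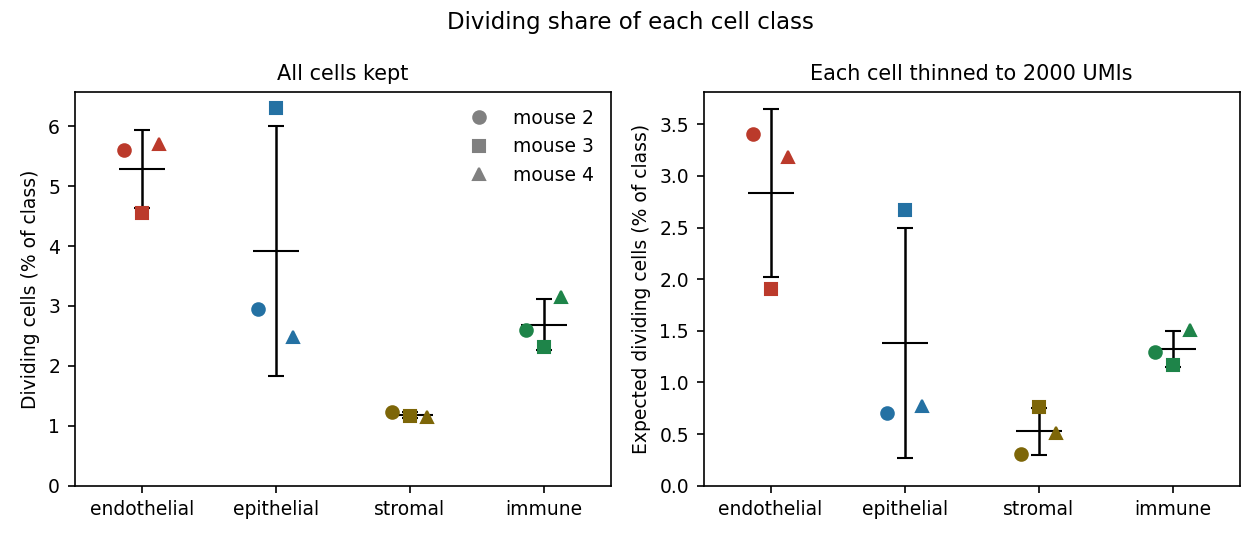
Percent of the cells of each class that were dividing, in all cells kept (left) and after every cell was thinned to 2000 UMIs (right). Points are the 3 mice, and bars give the mean ± SD; in the left panel the stromal class lies near 1.2% in every mouse and the epithelial class is spread by mouse 3 at 6.31%.

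The shares of ECs and immune cells did not overlap with those of stromal cells, and neither did those of ECs with immune cells or of epithelial with stromal cells. For these 4 of 6 pairs of classes the 2-sided exact permutation test gave *p* = 0.1, the smallest value that 3 shares against 3 allow. After adjustment over the pairs it was 0.15, so no pair could pass 0.05. Both classes of a pair come from the same 3 mice, and this test, here and for types and ratios below, does not pair them by mouse. Within mice, each of these 4 differences had the same sign in all 3. The differences were 4.11 percentage points for ECs minus stromal cells, 2.60 for ECs minus immune cells, and 2.74 for epithelial minus stromal cells. ECs and epithelial cells overlapped (difference 1.37 points, exact permutation *p* = 0.4), as did epithelial and immune cells (1.22 points, *p* = 0.6). Because of these shares, ECs made up 31.0% ± 11 of the dividing cells with a class but 16.8% ± 4.65 of all cells, and stromal cells 9.33% of the dividing but 23.1% of all cells.

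A threshold on raw UMIs passes deep cells more often, and the dividing cells were deeper. Their median UMIs were 16565 in ECs, 25272 in epithelial, 24662 in stromal, and 13881 in immune cells, against 6635, 16280, 10260.5, and 3857 in the other cells of these classes. Doublets were kept: 11, 7, 8, and 16 of the dividing cells were marked as such, and 4, 0, 3, and 6 were mixed, with UMIs of the genes of another class at 0.25 of their own or more. After each cell was thinned to 2000 UMIs, with 281 ECs, 25 epithelial, 135 stromal, and 375 immune cells below that depth left out, the shares were 2.83% ± 0.814 (3.41, 1.90, and 3.18), 1.38% ± 1.12 (0.707, 2.67, and 0.769), 0.525% ± 0.229 (0.303, 0.761, and 0.511), and 1.32% ± 0.173 (1.29, 1.17, and 1.51). The order of ECs above immune and of immune above stromal cells held in every mouse at this depth (exact permutation *p* = 0.1, adjusted 0.2), whereas epithelial and stromal cells now overlapped (*p* = 0.2). At 1000 UMIs per cell, the immune share of mouse 3 (0.458%) lay below its stromal share (0.476%). At 5000 UMIs per cell, which left out 2094 immune cells, the immune share was 6.21% and that of ECs 4.95%.

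The UMIs of the 2 genes of the rule, pooled over cells and mice, are given as a description. Dividing ECs held 1058 UMIs of *Mki67* and 1082 of *Top2a*, epithelial cells 772 and 738, stromal cells 594 and 414, and immune cells 1353 and 1009. In all, 29 of the 205 dividing cells held no *Top2a* (4 ECs, 6 epithelial, 6 stromal, and 13 immune cells), and 5 held no *Mki67*. When both genes had to be detected, the mean shares were 4.91% ± 0.321, 3.37% ± 2.27, 0.834% ± 0.315, and 2.10% ± 0.0665, in the same order of classes.

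Below the threshold, stromal cells held *Mki67* nearly without *Top2a*. Among cells with 1 to 3 UMIs of both genes together, the split of *Mki67* to *Top2a* was 56 to 36 in 64 ECs, 50 to 37 in 64 epithelial cells, and 146 to 107 in 182 immune cells, but 284 to 14 in 219 stromal cells. Of these stromal cells, 186 were myofibroblasts by their markers (*Aspn*, *Pdgfra*, and *Tgfbi*), cells that shape the septal tips, and they held 252 *Mki67* and 4 *Top2a* UMIs, with *Cdk1* in 1 cell and *Birc5* in 1. All myofibroblasts under 4 UMIs together had 30.4, 28.7, and 26.6 CPM of *Mki67* (28.6 ± 1.87), found in 183 of 825 cells, against 1.00, 0, and 0.281 CPM of *Top2a*. CPM are the UMIs of a gene scaled to 1000000 UMIs of the summed cells, and in such sums fewer cells of a type and less RNA per cell cannot be told apart. The high *Mki67* level was thus present in each mouse and was not accompanied by the other 3 markers. T cells had a similar *Mki67* level below the threshold (26.1 ± 8.23 CPM) but with *Top2a* at 15.7 ± 2.80 CPM, and the *Col13a1*-type fibroblasts had 1.77 CPM and the *Col14a1*-type fibroblasts 3.79 CPM of *Mki67*.

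**Figure D2:**
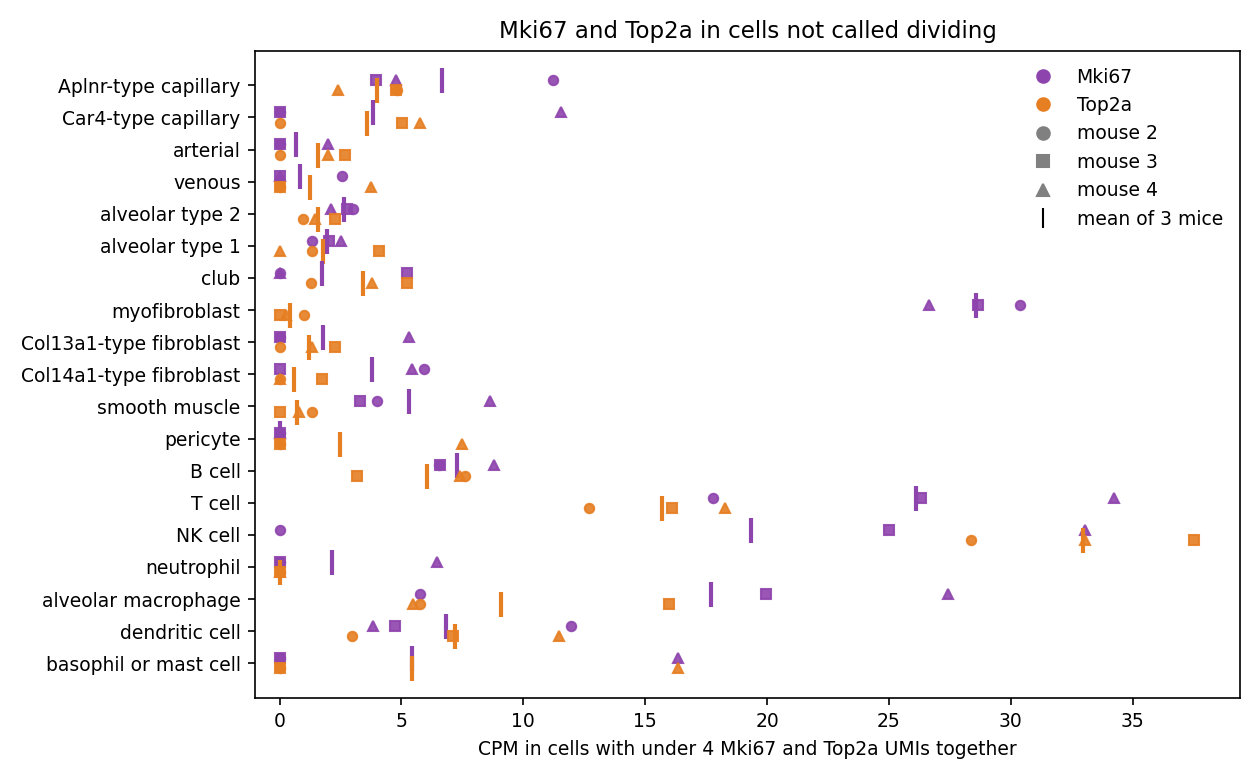
Summed *Mki67* and *Top2a* levels (CPM) in cells under 4 UMIs of both genes, by cell type. Points are the 3 mice; myofibroblasts lie between 26.6 and 30.4 CPM of *Mki67* with *Top2a* at or near 0, whereas T cells hold both genes in every mouse.

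The 7 dividing myofibroblasts held 335 *Mki67* and 239 *Top2a* UMIs, with *Cdk1* in 4 of them, and 3 held no *Top2a*. Their share, 0.805% ± 0.289 of the 832 myofibroblasts, rested on the threshold: it was 7.53% with 2 or more UMIs and 0.475% with 8 or more. At 2 or more UMIs the EC share was 6.88%, so the order of these cells depended on the threshold.

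Within a class, dividing cells were unequally spread over cell types. A cell's type was the largest sum over lists of 3 markers, with at least 2 UMIs, so a type name stands for its marker list. *Aplnr*-type capillary ECs (*Aplnr*, *Kit*, *Gpihbp1*), the general capillary cells of the alveolus, were dividing in 7.66%, 7.32%, and 8.45% (44 of 558 cells, 7.81% ± 0.582). *Car4*-type capillary ECs (*Car4*, *Ednrb*, *Tbx2*), the wide thin cells of gas exchange, were dividing in 3.64%, 4.44%, and 2.08% (5 of 148 cells, 3.39% ± 1.2). Arterial ECs were dividing in 3.64%, 3.03%, and 5.17% (6 of 146, 3.95% ± 1.10), and venous ECs in 1 of 91 cells. The *Aplnr*-type shares lay above those of the other 2 types in every mouse, with differences of 4.42 and 3.86 points (exact permutation *p* = 0.1 for each, 0.18 after adjustment over 9 pairs of types), and 3 of 9 lymphatic ECs were dividing as well, of which 2 were marked as doublets. At equal depth (2000 UMIs) these types overlapped, with 4.90%, 2.20%, and 2.99% in *Aplnr*-type, 3.98%, 1.72%, and 1.11% in *Car4*-type, and a mean of 1.08% ± 1.82 in arterial ECs, which in mouse 4 stood at 3.18%. *Aplnr*-type cells made up 69.8% of the dividing and 46.4% of the other ECs. A type needs raw UMIs, and ECs without a type were 6.35% of the dividing and 19.3% of the other ECs.

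Among epithelial cells, alveolar type 2 (AT2) cells (*Lamp3*, *Etv5*, *Slc34a2*), which make surfactant, held most of the dividing cells: 33 of 1036, or 2.35%, 5.86%, and 2.27% (3.49% ± 2.05). The higher epithelial share of mouse 3 was thus also that of its AT2 cells. Alveolar type 1 (AT1) cells had 4 of 122 (3.68% ± 1.75), and ciliated cells 1 of 7. Club cells, the secretory cells of the airway, had shares of 15.4%, 18.2%, and 11.8%, but in only 41 cells, of which 6 were dividing. These 6 club cells held 55504 to 191992 UMIs each, none was marked as a doublet, and they gave 44.1% of all UMIs of the dividing epithelial cells.

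Stromal cells were rarely dividing in any type with over 100 cells. Shares were 1.49% in *Col13a1*-type fibroblasts (3 of 184), 2.88% ± 0.492 in *Col14a1*-type fibroblasts (3 of 106), and 0.921% in smooth muscle cells (3 of 298), and 0 of 106 pericytes were dividing. Of the *Col14a1*-type cells 2 were marked as doublets. All 3 *Col13a1*-type cells were so marked, and they gave 42.9% of the UMIs of the dividing stromal cells.

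In the immune class, T cells (*Cd3e*, *Cd3d*, *Cd3g*) were dividing in 7.69%, 7.96%, and 7.04% (19 of 249 cells, 7.57% ± 0.474). B cells (*Cd79a*, *Cd79b*, *Ms4a1*), the largest immune type, were dividing in 0.25%, 1.45%, and 1.97% (24 of 1805 cells, 1.22% ± 0.881), and 10 of the 24 were marked as doublets. T cells lay above B cells in every mouse (B cells minus T cells, −6.34 points) (exact permutation *p* = 0.1, adjusted 0.18). Dendritic cells were dividing in 10.7%, 10.9%, and 14.7% (13 of 108, 12.1% ± 2.26), alveolar macrophages in 12.5%, 4.65%, and 11.1% (10 of 112, 9.42% ± 4.19), and NK cells in 5 of 84 (5.61% ± 5.11). The alveolar macrophage label stands for its markers (*Chil3*, *Ear2*, *Marco*). Read after the values had been seen, 9 of the 10 dividing cells of this type held *Ear2*, 4 *Chil3*, and 2 *Marco*. *Camp* and *Ngp*, granule genes of neutrophil precursors, were each found in 2 of the 10, against 3 and 2 of the 102 others. Dendritic cells and alveolar macrophages made up 16.5% and 12.7% of the dividing but 3.25% and 3.49% of the other immune cells. B cells made up 30.4% of the dividing and 60.9% of the other immune cells. Thinned to 2000 UMIs, the mean shares were 1.41% in AT2 cells, 3.37% in T cells, 0.75% in B cells, and 0.479% in myofibroblasts.

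**Figure D3:**
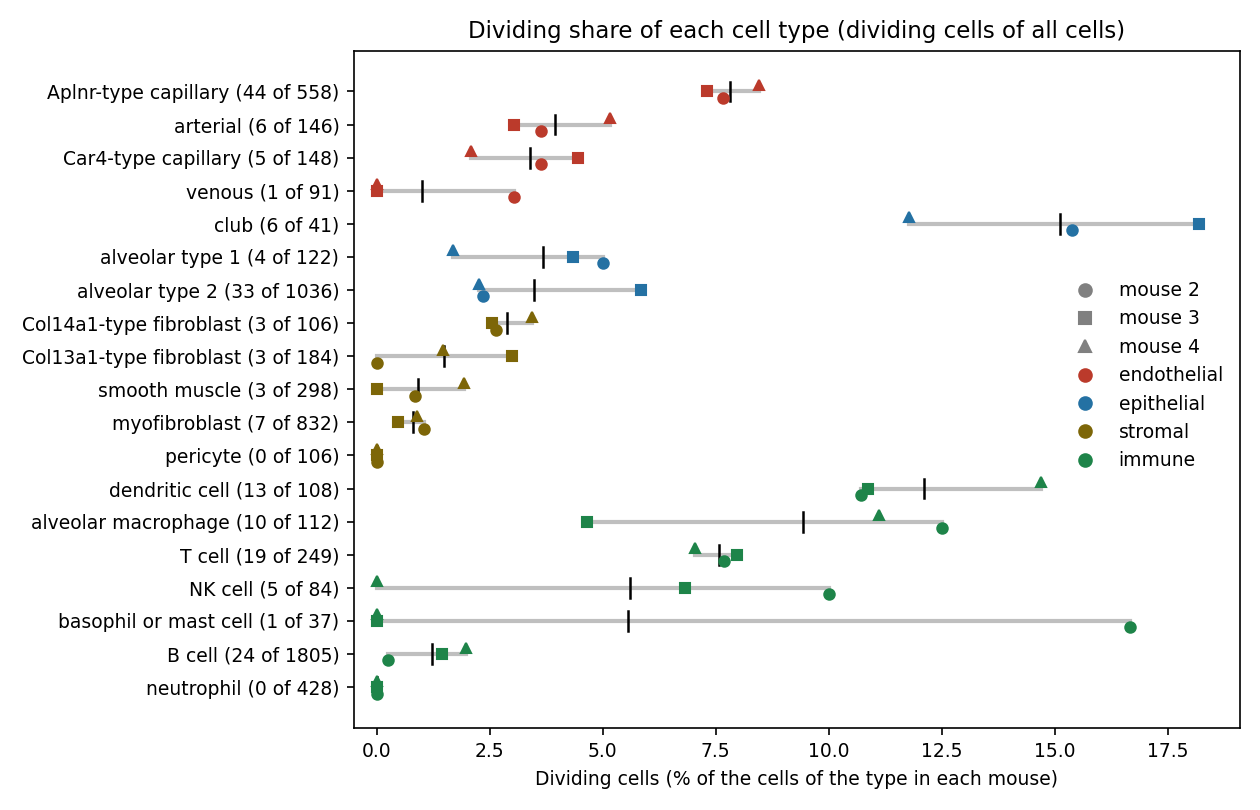
Percent of the cells of each type that were dividing, with the number of dividing cells among all cells of the type beside its name. Points are the 3 mice, the grey line is their range, and the black tick is the mean; *Aplnr*-type ECs and T cells lie near 8% in every mouse, B cells between 0.25% and 1.97%, and neutrophils and pericytes at 0.

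All dividing classes held replication and mitosis genes far above the other cells of their class, which is a description, since the rule picks cycling cells. The 40 replication genes (among them *Mcm* helicase subunits, *Pcna*, *Rrm2*, and *Dut*) summed to 2821, 2979, and 1734 CPM in dividing ECs against a mean of 489 CPM in the other ECs. Immune cells had the highest level, 5242, 4063, and 3627 CPM (4311 on average) against 625, and epithelial and stromal cells had means of 2479 and 1871 CPM against 310 and 324. All 40 genes were higher in the dividing cells of every mouse in ECs, epithelial, and immune cells, and 28 of 40 in stromal cells. The 42 mitosis genes (such as *Ccnb1*, *Plk1*, *Cenpf*, and *Bub1*) summed to 8445, 3534, and 5733 CPM in dividing ECs against 202, with means of 3978, 7669, and 5902 CPM in epithelial, stromal, and immune cells against 112, 151, and 271. In each class 41 of the 42 were higher in every mouse, and the exception was *Pttg1*, the securin gene, which in ECs was lower in every mouse (log2 fold −0.59).

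The marker genes themselves stood high in the dividing cells of all 4 classes. *Mki67* had 1072, 426, and 696 CPM in dividing ECs, 560, 597, and 273 in epithelial, 949, 2043, and 659 in stromal, and 1123, 1093, and 1134 in immune cells, against means of 5.82, 2.46, 15.9, and 11.2 CPM in the other cells. *Cdk1* had 287, 168, and 189 CPM in dividing ECs, 207, 246, and 116 in epithelial, 172, 299, and 199 in stromal, and 174, 208, and 130 in immune cells, against 4.36, 0.996, 2.46, and 1.57 CPM. *Birc5* had means of 193, 159, 186, and 290 CPM against 1.84, 0.320, 0.896, and 2.34. For each of these genes every mouse of every class lay far above the other cells of its class, and the ranges of the dividing classes overlapped for *Cdk1*.

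**Figure D4:**
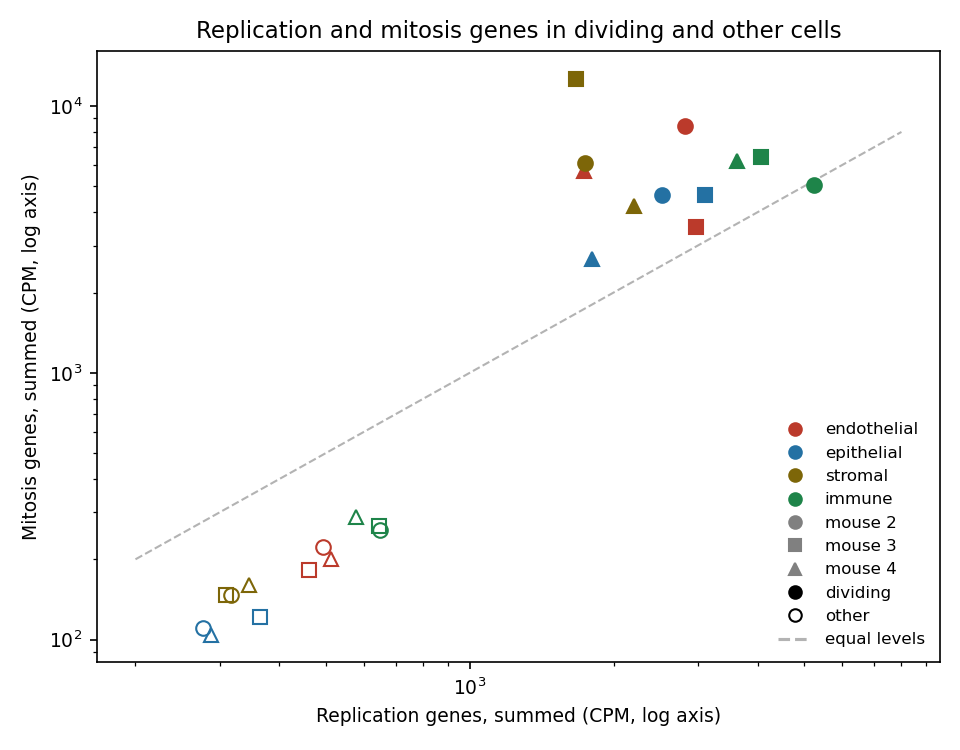
Summed level of 42 mitosis genes (vertical) against 40 replication genes (horizontal), in CPM on log axes, for each mouse and class. Filled points are dividing cells, open points the other cells of the class, and the dashed line marks equal levels; the filled points lie above the open ones on both axes, and immune cells of mouse 2 lie at the line.

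The balance of mitosis to replication transcripts is a rough measure of where in the cycle the dividing cells were caught. The cells were chosen by *Mki67* and *Top2a*, and how far this choice sets the balance was not tested. The ratio of the summed levels was 2.99, 1.19, and 3.31 in ECs (2.50 ± 1.14), 1.60 ± 0.208 in epithelial cells, 3.5, 7.62, and 1.91 in stromal cells (4.34 ± 2.94), and 0.967, 1.58, and 1.71 in immune cells (1.42 ± 0.397). The stromal ratios lay above all epithelial and immune ones (exact permutation *p* = 0.1 for each, 0.3 after adjustment over 6 pairs), and the other pairs overlapped. Single cells with more mitosis than replication UMIs were 47 of 63 in ECs (74.6%), 25 of 44 in the epithelial class (56.8%), 10 of 19 in the stromal class (52.6%), and 51 of 79 in the immune class (64.6%). The stromal sums rest on 7, 5, and 7 cells, and their order is not that of the shares of cells.

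Beyond the cycle itself, the dividing cells of each class were compared with the other cells of that class. Counts were summed per mouse, class, and state, and 13001 genes were tested with edgeR in 1 fit, with *p* values adjusted over all genes and a threshold of 0.05. Genes higher in dividing cells were 614 in ECs (4.72%), 1358 in epithelial (10.4%), 746 in stromal (5.74%), and 1607 in immune cells (12.4%). Genes lower were 434 (3.34%), 2080 (16%), 781 (6.01%), and 1533 (11.8%), respectively. The split depended on the scaling of the libraries, on single mice, and on the filters. Without TMM factors it was 643 higher and 140 lower in ECs, 1682 and 1070 in epithelial cells, and 861 and 245 in stromal cells, and with DESeq2 it was 1912 and 1645 in epithelial and 1235 and 438 in stromal cells. With 1 mouse left out there were 403–435 higher and 114–152 lower genes in ECs, 757–1352 and 909–1372 in epithelial, 417–745 and 119–296 in stromal, and 701–1014 and 907–2238 in immune cells, where leaving out mouse 2 gave 701 and 2238. The immune split was 882 and 2966 without a filter on low counts and 987 and 3283 with at least 8 UMIs, and that of ECs 497 and 821 with doublets left out. The stromal split was 427 and 121 with mixed cells left out. The median log2 fold of all genes was −0.12, −0.24, −0.24, and −0.13, and changes are read relative to it.

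In ECs, genes outside the 3 cycle lists that led the higher ones were again genes of division. *Casc5*, the kinetochore scaffold, had 213, 78.5, and 168 CPM in dividing and 0.672 CPM in other ECs (log2 fold 7.67). *2810417H13Rik*, a PCNA-associated factor, the noncoding RNA *Lockd*, the DNA glycosylase *Neil3*, *Fam64a*, the condensin subunit *Ncapd2*, and the lamin gene *Lmnb2* followed, with log2 folds between 3.6 and 7.29. *Cdkn2c*, an inhibitor of CDK4 and CDK6, also ranked among these 8 genes and is given with its list.

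Among the genes that fell in dividing ECs was a gene of arteries. *Bmx*, a kinase of arterial ECs, had 10.6, 22.4, and 6.99 CPM against a mean of 71.3 ± 11.4 in other ECs, without overlap (log2 fold −2.66 ± 0.39 SE, edgeR adjusted *p* = 4.53e-05). *Il6st*, the shared receptor subunit gp130 (−0.96 ± 0.13, adjusted *p* = 1.51e-05 by edgeR), *Syt15* (−4.02), *Marveld1* (−1.09), *Amigo2* (−2.80), and *Unc13b* (−1.34) also fell, under every alternative in which they were tested. *Bmx*, *Syt15*, and other low genes had too few UMIs to be tested within *Aplnr*-type ECs. *Nuak1* (−1.74) and *Fam3c* (−1.42) fell too, but lost the call when only *Aplnr*-type ECs were compared (9545 genes tested, 5.44% higher and 3.23% lower), where *Nuak1* turned to 0.85. The arterial connexin *Gja5* fell from 135 to 33.4 CPM (−2.27, edgeR adjusted *p* = 0.00122), a call that was lost with DESeq2, without mouse 4, and within *Aplnr*-type ECs, where the fold was −1.76 in cells chosen by a comparison with this marker. Over all ECs, 0 of the 3 *Aplnr*-type and 0 of the 3 *Car4*-type markers passed (median log2 folds −0.22 and −0.62). Of the 3 arterial markers 2 were lower (3.34% of all genes). Arterial cells were 6 of the 63 dividing ECs and 140 of the 1107 others. Of 2 venous markers tested 1 was lower too (median log2 fold −1.66), and venous cells were 1 of the dividing and 90 of the other ECs. The part of this makeup in the result was not tested beyond the comparison within *Aplnr*-type ECs.

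*Dll4*, *Kdr*, *Notch1*, and *Aplnr* did not pass the test over all ECs. *Dll4*, the Notch ligand of tip cells, had 190, 199, and 140 CPM in dividing and 184, 190, and 175 CPM in other ECs, which overlapped (log2 fold −0.20 ± 0.17, edgeR adjusted *p* = 0.546). *Kdr*, the main VEGF receptor, had 818 ± 104 against 872 ± 148 CPM (−0.22, adjusted *p* = 0.767 by edgeR), and *Notch1* 405 ± 24.0 against 422 ± 28.1 CPM (−0.19, adjusted *p* = 0.632 by edgeR). *Aplnr*, the apelin receptor, had 449, 387, and 407 CPM against 562, 567, and 515 (−0.53 ± 0.21, edgeR adjusted *p* = 0.151), lower in every mouse but not past the threshold. Within *Aplnr*-type ECs alone *Dll4* did not pass it either (−0.15, edgeR adjusted *p* = 0.694), and *Aplnr*, which chooses these cells, was not read there. Of the 14 Notch pathway genes tested, 0 were higher and 2 lower in dividing ECs, where 4.72% of all genes were higher and 3.34% lower. These were *Jag1* (38.0, 47.7, and 69.9 against a mean of 86.0 CPM, −0.82, edgeR adjusted *p* = 0.0226) and *Hey2*, a target kept on in arteries (1.41 against 15.1 CPM, −3.46, edgeR adjusted *p* = 0.0045), but the call of *Jag1* was lost without any 1 of the mice, without TMM factors, and within *Aplnr*-type ECs (−0.29), and that of *Hey2* without mouse 3 or mouse 4 and within *Aplnr*-type ECs (−0.57).

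In epithelial cells, division genes again led the genes that were higher. *2810417H13Rik* had 193, 299, and 156 CPM in dividing and 2.05 CPM in other cells (log2 fold 6.60). *Lockd* (6.60), *Casc5* (6.85), the mitotic factor *Foxm1* (6.16), citron kinase *Cit* of cytokinesis (4.95), *Ncapd2* (4.76), *Ccdc34* (3.76), and the spindle checkpoint gene *Mad2l1* (3.62) were the other leading genes.

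Among the genes that fell in epithelial cells were *Scd2*, *Xbp1*, and *Hbp1*. *Scd2*, a fatty acid desaturase, had 209, 392, and 266 CPM against a mean of 870 in other epithelial cells (−1.78 ± 0.19 SE, edgeR adjusted *p* = 2.39e-07). *Xbp1*, a factor that expands the secretory apparatus, had 69.0, 56.8, and 49.6 CPM against 137 (−1.42 ± 0.15, edgeR adjusted *p* = 3.66e-07). *Hbp1*, a repressor of cell cycle entry, had 42.6, 36.1, and 44.1 CPM against 90.2 (−1.32 ± 0.14, edgeR adjusted *p* = 1.58e-07). These 3 genes did not overlap between dividing and other cells, and with *Itm2c* (−1.31) and *Tgoln1* (−1.82) they kept their call under every alternative in which they were tested. *Aqp1* (−4.41) and *Hspg2* (−2.43) lost it within AT2 cells (8.01% of genes higher and 11% lower), where *Aqp1* stood at 0.54.

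Of 20 growth factor receptors tested, 6 fell and 1 rose in dividing epithelial cells, where 16% of all genes were lower and 10.4% higher. Within AT2 cells 2 of 18 were lower and 0 higher, against 11% and 8.01% of all genes. *Fgfr2*, the receptor through which FGF sustains alveolar epithelium, had 199, 201, and 147 CPM against 318, 377, and 331 (−1.09 ± 0.23, edgeR adjusted *p* = 0.00105), and *Met*, the receptor of hepatocyte growth factor, 73.0, 70.5, and 60.6 CPM against a mean of 120 (−1.0, edgeR adjusted *p* = 0.00112). Neither overlapped, and these were the 2 that stayed lower within AT2 cells, at −0.81 and −1.02. *Nrarp*, a feedback target of Notch, rose from 2.74 to 22.3 CPM (2.71, edgeR adjusted *p* = 0.00154) and to 3.5 on the log2 scale within AT2 cells, but lost its call without mouse 4.

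Markers of airway cells moved with the dividing epithelial cells, in which the 6 club cells held 44.1% of the UMIs. *Cyp2f2*, a club cell enzyme, had 2060 ± 955 against 440 ± 78.1 CPM (2.11, edgeR adjusted *p* = 8.29e-05), and the ciliated cell factor *Foxj1* 36.5, 415, and 105 CPM against 24.0 (2.78, edgeR adjusted *p* = 0.000235). All 3 club and all 3 ciliated markers were higher (10.4% of all genes), and 2 of 3 AT1 markers were lower (16% of all genes): *Rtkn2* (−3.19) and *Hopx* (−1.77). Of the 3 AT2 markers 1 was lower as well (median log2 fold −1.05). These AT1 calls were lost within AT2 cells, which are chosen by a comparison with these markers, and *Cyp2f2* and *Foxj1* were too low to be tested there.

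In dividing stromal cells, the leading genes included *2810417H13Rik* (7.28), *Casc5* (9.17), the spindle genes *Spag5* (9.54), *Kif15* (8.15), and *Spc24* (6.46), the histone gene *Hist1h2ae* (7.76), and the actin nucleator *Diaph3* (5.39). Genes that fell under every alternative with a value included *Kdm5b*, a histone demethylase (−1.43 ± 0.21 SE, edgeR adjusted *p* = 4.4e-05), the sugar transferase *Ogt* (−1.09 ± 0.16, adjusted *p* = 4.86e-05 by edgeR), *Rsu1* (−1.05), and the glycolytic *Aldoa*. *Sfrp2*, a Wnt modulator of fibroblasts, had 0 of 541274 UMIs in dividing stromal cells, and against a floor of 3 counts over the group (5.54 CPM) it was at least 16.0-fold lower than the 88.4 CPM of other stromal cells. Markers of stromal types moved with these genes: 2 of 3 were lower for *Col14a1*-type fibroblasts (median log2 fold −4.39), 2 of 3 for myofibroblasts (−1.59), 2 of 3 for smooth muscle cells (−1.18), 1 of 3 for pericytes (−1.25), and 0 of 3 for *Col13a1*-type fibroblasts (−0.056), against 6.01% of all genes, and their part in the changes was not tested. *St5* (−1.38) and *Fam129a* (−1.16) lost their call with mixed cells left out, and *Sec31a* (−1.05) and *Slc39a7* (−1.18) without mouse 4.

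Endothelial transcripts were present among the dividing stromal cells. *Cdh5* and *Cldn5* together had 471 CPM in them and 21.7 CPM in other stromal cells, and 4 of the 19 cells held a UMI. *Dll4* had 10.1, 39.8, and 54.9 CPM against 0.989 (log2 fold 5.10, edgeR adjusted *p* = 1.09e-06), and *Tie1* 10.1, 92.9, and 61.8 CPM against 2.54 (4.31). Of 20 growth factor receptors 7 were higher and 2 lower in this class, and of 14 Notch genes 4 and 0, against 5.74% and 6.01% of all genes. Those higher included the endothelial genes *Kdr* (3.31), *Flt1* (3.74), *Flt4* (3.96), *Notch4* (2.41), and *Dll4*. With the 3 mixed cells left out, the calls of *Dll4*, *Tie1*, *Kdr*, and *Aplnr* were lost, *Kdr* stood at −5.96, and the stromal calls fell from 1527 to 548.

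In dividing immune cells, *2810417H13Rik* had 576, 529, and 466 CPM against 3.99 (6.95), followed by *Ncapd2*, *Gmnn* (geminin, which blocks a second round of replication), *Cit*, *Spc24*, *Kif15*, *Casc5*, and *Hist1h2ae*, with log2 folds between 3.58 and 6.18. Of the named genes that fell, *Gadd45b* (−3.49), *Ets2* (−2.63), *Rnf149* (−2.25), and *G0s2* (−5.47) lost the call within T cells (6.15% of genes higher and 12.3% lower). There *Ets2* stood at 0.95 and *Gadd45b* at 0.22. *Gpcpd1* (−1.48 ± 0.12 SE, edgeR adjusted *p* = 2.72e-09), *Trim12a* (−1.66 ± 0.14, adjusted *p* = 4.15e-09 by edgeR), *Gm20696* (−2.75), and *Gm43291* (−3.11) stayed lower under every alternative in which they were tested, the first 3 within T cells too.

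Markers of neutrophils, B cells, and T cells moved with the makeup of the dividing cells. Those of dendritic cells and alveolar macrophages, which were more frequent among the dividing cells, did not pass (0 of 3 each, median log2 folds 0.50 and −0.059). Of the 3 interstitial macrophage markers 2 were lower (−4.81), with this type at 1.27% of the dividing and 0.752% of the other immune cells. Of all genes 12.4% were higher and 11.8% lower. The part of the makeup in other changes was not tested beyond the comparison within T cells. *Retnlg*, a neutrophil gene, had 0, 5.67, and 2.66 CPM against 498 ± 97.1 (−7.27, edgeR adjusted *p* = 1.19e-06), with no cell typed as a neutrophil among the dividing cells and 14.6% among the others. Read after the values had been seen, *Camp* and *Ngp*, granule genes of neutrophil precursors, were each found in 2 of the 79 dividing immune cells (1363 and 558 CPM over these cells, against 78.5 and 58.0 CPM over all cells kept). All dividing immune cells with these genes were typed as alveolar macrophages, of which 2 of 10 held each. *Ms4a1*, the CD20 gene of B cells, had 25.7, 295, and 420 CPM against 1216 (−2.31, edgeR adjusted *p* = 0.000912). The T cell gene *Cd3g* had 235, 212, and 157 CPM against 92.6 (1.07, edgeR adjusted *p* = 0.0485), and with the mouse as a block its adjusted *p* was 0.0573. *Cd3e* was higher over the class too (1.17), and these genes were not read within T cells, which they choose.

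Of 19 regulators of G1 tested, 2 were higher and 1 lower in dividing ECs (all genes, 4.72% and 3.34%), 7 and 1 in epithelial cells (10.4% and 16%), 1 and 2 in stromal cells (5.74% and 6.01%), and 5 and 2 in immune cells (12.4% and 11.8%). Between pairs of classes, the change of 1 to 5 of the 19 genes differed, where 0.754% to 4.21% of all genes did in each direction, and in some alternatives 0 did (ECs against epithelial cells under a stricter cell filter of 500 genes and 10% mitochondrial UMIs or without mouse 4, epithelial against immune cells without mouse 3). *Cdkn2c* (p18), an inhibitor of CDK4 and CDK6, had 226, 182, and 136 CPM in dividing ECs against 15.5, 8.74, and 10.5 in the others (log2 fold 3.80 ± 0.26 SE, edgeR adjusted *p* = 2.14e-10). It rose likewise in epithelial cells (71.0, 65.4, and 29.4 CPM against a mean of 2.24, 4.41 ± 0.36, edgeR adjusted *p* = 3.88e-09) and in immune cells (61.1, 52.9, and 61.2 against 6.46, 3.17, edgeR adjusted *p* = 5.16e-07). In stromal cells *Cdkn2c* was high in both states, with 384, 299, and 124 CPM in dividing and 130 ± 4.46 CPM in other cells (0.61, edgeR adjusted *p* = 0.105), and the difference from epithelial cells passed the test (3.80 ± 0.42, edgeR adjusted *p* = 2.88e-05). In the fit with 1 type per class, which kept all stromal cells, *Cdkn2c* passed in them (0.78, edgeR adjusted *p* = 0.0385). The immune call of *Cdkn2c* was lost within T cells, whereas the calls in ECs and epithelial cells held under every alternative. *Cdkn2d* (p19), the related inhibitor, rose in ECs (102 ± 21.3 against 14.6 ± 2.88 CPM, 2.68) and epithelial cells (2.53), and in stromal cells it rose (1.43) but lost the call without mouse 2 or mouse 3.

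The kinase *Cdk4* had 190, 146, and 109 CPM in dividing immune cells against a mean of 50.8 ± 4.71 (1.48, edgeR adjusted *p* = 1.05e-06), and stayed higher within T cells (1.07). In epithelial cells it rose by 0.56, a call lost without mouse 2 or mouse 3, and in ECs and stromal cells its log2 fold was 0.28 and 0.18, not past the threshold. *Btg1*, an antiproliferative gene of resting lymphocytes, fell in dividing immune cells, from 1226 ± 72.6 to 302, 497, and 370 CPM (−1.69, edgeR adjusted *p* = 7.34e-07), and *Btg2* fell from 530 to 241 CPM (−1.20, edgeR adjusted *p* = 0.00112). Within T cells these stood at −2.57 and −0.97. *Btg1* also fell in epithelial cells (−0.76, lost without mouse 2 or mouse 3) and ECs (−0.67, lost without any 1 of the mice, without TMM factors, and within *Aplnr*-type ECs at −0.33), whereas in stromal cells it stood at −0.35 without passing the test.

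Of 13 glycolysis genes tested, 7 were higher and 0 lower in dividing immune cells, with a median log2 fold of 0.67, where 12.4% of all genes were higher and 11.8% lower. In ECs 0 were higher and 2 lower (median −0.16, all genes 4.72% and 3.34%), in epithelial cells 1 and 2 (−0.26, all genes 10.4% and 16%), and in stromal cells 0 and 2 (−0.38, all genes 5.74% and 6.01%). *Gapdh* had 1535, 1253, and 1123 CPM in dividing and 483 ± 33.7 CPM in other immune cells (1.38 ± 0.19, edgeR adjusted *p* = 8.75e-06). *Tpi1* had 225, 174, and 149 CPM against 70.6 (1.31, edgeR adjusted *p* = 3.74e-06), and *Ldha*, which makes lactate, 608, 382, and 396 against 184 (1.27, edgeR adjusted *p* = 0.000149). None of these 3 genes overlapped, all kept their call under every alternative, and within T cells they stood at 1.21, 1.64, and 0.72. *Aldoa*, the aldolase of the same pathway, fell in ECs (68.4 ± 4.19 against 125 ± 2.37 CPM, −1.01), stromal (60.6, 39.8, and 85.8 against a mean of 147, −1.34), and epithelial cells (−0.56), and stood at 0.01 in immune cells. The EC call of *Aldoa* was lost without mouse 2 and within *Aplnr*-type ECs (−0.68), and the epithelial one without mouse 2, without mouse 3, and without TMM factors, but it held within AT2 cells (−1.30). The immune count of 7 was 8 with DESeq2 and without TMM factors, 4 in cells with at least 5000 UMIs, and 3 without mouse 2, and 0 genes were lower in each.

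The remaining lists held few calls. Of 15 immediate early and heat shock genes, 4 fell and 2 rose in immune cells, where 11.8% of all genes were lower and 12.4% higher. *Dusp1* (−1.56) and *Junb* (−1.92), which respond within minutes to stress, fell there, and *Hspa1b*, an inducible heat shock gene, rose from 35.6 to 302, 119, and 154 CPM (2.32, edgeR adjusted *p* = 1.41e-05). The calls of *Dusp1* and *Junb* were lost in cells with at least 5000 UMIs and within T cells, where *Dusp1* stood at 1.24. Of 77 ribosomal protein genes, 0 passed in ECs (2 with DESeq2), 11 were lower and 1 higher in epithelial cells (median −0.28, all genes 16% and 10.4%), 1 was lower in stromal cells (all genes 6.01%), and 1 was lower and 2 were higher in immune cells (median −0.01). These counts depended on the cells compared: 37 of 77 were lower in immune cells with at least 5000 UMIs (1865 of all 12604 genes), 36 of 77 within T cells (12.3% of all genes), and 30 of 77 within AT2 cells (11% of all genes). Of 10 imprinted growth genes, *Ndn* (−1.40) and *Peg3* (−0.87) fell in stromal cells but lost their calls without mixed cells and without mouse 2 or mouse 3, and 1 rose and 1 fell in epithelial cells, no more than the share of all genes there.

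**Figure D5:**
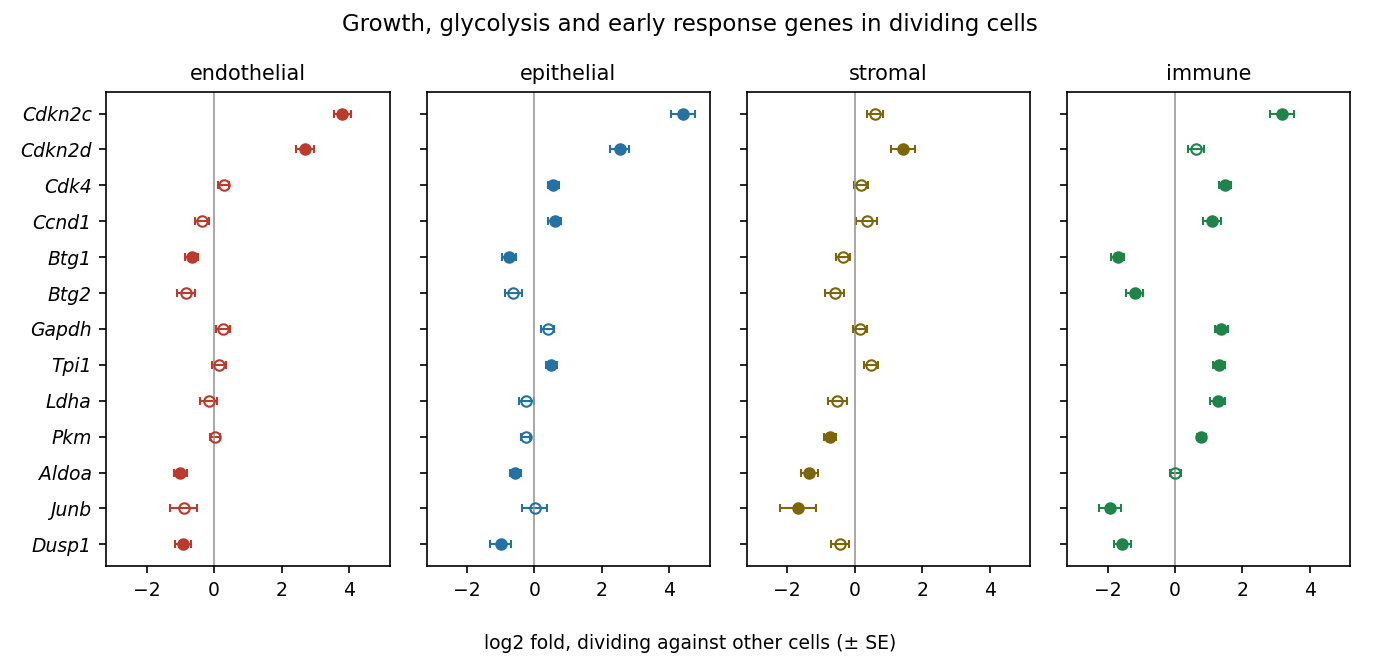
Log2 fold of dividing against other cells for 13 genes of the G1, antiproliferative, glycolysis, and immediate early lists, with its standard error, in the 4 classes. Filled points passed edgeR at an adjusted *p* under 0.05; *Gapdh*, *Tpi1*, *Ldha*, and *Pkm* lie to the right of 0 in immune cells, *Aldoa* lies to the left of 0 in the other 3 classes, and *Cdkn2c* is far to the right in all but stromal cells.

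Whether a change in dividing cells differed between classes was tested with interaction contrasts of the same edgeR fit. The number of genes past the threshold was 354 for ECs against epithelial cells (201 larger in ECs, 1.55%, and 153 smaller, 1.18%), 293 for ECs against stromal cells (98, 0.754%, and 195, 1.5%), and 598 for ECs against immune cells (231, 1.78%, and 367, 2.82%). It was 492 for epithelial against stromal cells (159, 1.22%, and 333, 2.56%), 827 for epithelial against immune cells (280, 2.15%, and 547, 4.21%), and 829 for stromal against immune cells (342, 2.63%, and 487, 3.75%). Without TMM factors the split was 120 larger and 153 smaller for ECs against epithelial cells, 234 and 205 for ECs against immune cells, 304 and 251 for epithelial against immune cells, and 384 and 214 for stromal against immune cells. For the pairs with immune cells the split turned under more settings: without a filter on low counts it was 453 larger and 76 smaller (ECs), 655 and 80 (epithelial), and 527 and 129 (stromal), under the stricter cell filter 435 and 58, 340 and 64, and 775 and 73, and with at least 8 UMIs 773 and 111, 711 and 138, and 863 and 96, so no direction is read from these counts. Of the 13 glycolysis genes, 6 had a lower log2 fold in ECs than in immune cells, 6 a lower one in epithelial, and 4 a lower one in stromal cells than in immune cells, and 0 differed the other way. These glycolysis counts fell to between 0 and 2 when a mouse was left out, to 0, 1, and 1 in cells with at least 5000 UMIs, to 0, 0, and 2 under the stricter cell filter, to 1, 1, and 2 without a filter on low counts, and to 1 each with at least 8 UMIs. With 1 mouse left out, the counts over all genes were lower for each pair, except for ECs against stromal cells without mouse 2 (359), and the lowest values were 15 for ECs against epithelial cells without mouse 4 and 9 for epithelial against stromal cells without mouse 4.

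Some division genes stood at different levels in the other cells of a class already. *E2f2*, an activating E2F factor, rose in ECs (63.3, 56.1, and 26.2 CPM against 2.97, log2 fold 3.84), whereas epithelial cells held 42.6, 43.0, and 29.4 CPM in dividing and 46.5 CPM in other cells (−0.48), and the difference of 4.32 ± 0.42 passed the test (edgeR adjusted *p* = 6.93e-06). *Cit* behaved the opposite way: dividing ECs had 156, 112, and 140 CPM but other ECs already 39.2 CPM (1.69), against 3.45 CPM in other epithelial and 4.28 CPM in other immune cells (4.95 and 4.97). The differences were −3.26 ± 0.33 and −3.29 ± 0.35 (edgeR adjusted *p* = 7.95e-06 and 1.33e-05). *Nrm*, a gene of the inner nuclear membrane, and *Cenpq*, a centromere gene, rose in epithelial cells (4.09 and 3.98) but not in immune cells (0.13 and 0.28), with differences of 3.97 and 3.69 (edgeR adjusted *p* = 6.31e-06 for both).

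Further genes of the dividing cells of a type were read after their values had been seen and are given without a test. Dividing B cells had less *Ighd* than other B cells (366 against 1044 CPM) and less *Fcer2a* (112 against 374), genes of mature B cells, and less *Ighm* (4787 against 7912), the heavy chain gene of IgM, whereas *Myb* had 88.9 against 46.7 CPM and *Rag1*, which rearranges antigen receptor genes, 39.5 against 17.4 CPM (12 UMIs in 4 of the 24 dividing cells). *Vpreb3*, a gene of B cells and their precursors, had 445 against 552 CPM, *Cd93* 65.9 against 57.3 CPM, and *Cd24a* 688 against 457 CPM. These values are pooled over mice, and 10 of the 24 cells were marked as doublets. Mouse 2 had 1 dividing B cell, with *Ighm* at 15909 against 7237 CPM, *Vpreb3* at 5195 against 519 CPM, and no *Rag1*. Dividing T cells had less *Ccr7* (13.3 against 161 CPM) and *Il7r* (192 against 459), genes of naive T cells. *Gata3* had 307 against 256 CPM and *Foxp3* 72.0 against 95 CPM. *Cd4* was found in 9 of the 19 and *Cd8a* in 4. Among the 13 dividing dendritic cells, 5 held *Clec9a* and 4 *Xcr1*, genes of type 1 conventional cells, and 6 held *Cd209a*. The dividing alveolar macrophages, of which 2 of 10 held *Camp* and 2 *Ngp*, had 1389 CPM of *Chil3*, an abundant product of this cell type, against 12236 in the others.

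Genes that did not choose the cell type were read likewise in capillary ECs and AT2 cells. In dividing *Aplnr*-type ECs, *Dll4* had 161 against 167 CPM in the others, and *Apln*, the ligand linked to sprouting, 65.0 against 37.4 CPM, both pooled over mice. By mouse, *Apln* had 23.4, 83.5, and 84.9 CPM against 27.8, 37.3, and 46.1, so it was not higher in mouse 2. Its dividing value rests on 70 UMIs in 16 of the 44 cells. Dividing AT2 cells had 144420 CPM of the surfactant gene *Sftpc* against 178607 in the others, and 988 against 1422 CPM of the lamellar body transporter *Abca3*.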

How the data were processed

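For 3 libraries of whole lung the authors deposited UMI counts, not normalized, for each gene in each cell, processed with Cell Ranger 3.0.2 on mm10 per the submitters' processing notes. Only cells with at least 500 UMIs are listed, for 28692 genes, and whether counting used strand is not given in the sources used here. The mitochondrial genes were 13. Doublets were scored with simulated doublets (scanpy 1.11.5). The automatic threshold marked 0.363%, 0.0319%, and 0.432% of cells, under 0.5%, so the highest scores at 0.8% per 1000 cells were marked instead (74, 79, and 97 cells) and kept.

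Counts were summed per mouse, class, and state (at least 5 cells) and tested with edgeR 4.0.16 (quasi-likelihood test, TMM, filterByExpr, Benjamini-Hochberg adjustment over all genes) in R 4.3.3. Named genes are the 8 higher and 8 lower genes with the lowest *p* per class and the 3 per pair of classes, outside the cycle lists, with the same direction in every mouse, and members of lists (replication, mitosis, chromatin and tubulin, G1, glycolysis, growth factor receptors, Notch, imprinted, immediate early and heat shock, ribosomal, cell type markers). Some genes that this rule names are not reported here. Members and lists were chosen with earlier results of these data known. Sums of 1 mouse come from 1 animal; deviations of the dividing and other sums of a class correlated with *r* from −0.393 to 0.549 over 3774 genes, and those of the other cells of pairs of classes from −0.0345 to 0.396, and an alternative fit had the mouse as a block. When tested on simulated data, edgeR recovered 70% of 200 genes given a log2 change of 2 in ECs (12677 genes) and 57.5% in stromal cells (12656 genes). Alternatives were DESeq2 1.42.0, no TMM, no filter on low counts, other cell filters, depths, thresholds and class genes, mixed cells or doublets left out, and each mouse left out. Comparing 1 type per class (*Aplnr*-type ECs, AT2 cells, T cells, and all stromal cells) and requiring both genes of the rule were chosen after seeing the data. Shares and ratios were compared with exact permutation tests (scipy 1.17.1), which did not pair the groups by mouse.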

Additional observations from a re-analysis of the deposited data

Results flagged for a closer look

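Changes in dividing cells that differed between 2 classes, by an interaction test in edgeR, were counted for each pair: 354 genes for ECs against epithelial cells, 293 for ECs against stromal cells, 598 for ECs against immune cells, 492 for epithelial against stromal cells, 827 for epithelial against immune cells, and 829 for stromal against immune cells. For ECs against epithelial cells, the 3 leading genes differed in log2 fold by 4.32 (*E2f2*), −3.26 (*Cit*), and 3.25 (*Nav2*, an axon guidance gene that rose in ECs by 2.99 and stood at −0.26 in epithelial cells), and all 3 kept their call under every alternative. For ECs against stromal cells they differed by −6.60 (*Lyve1*), −4.57 (*Tie1*), and −4.38 (*Sema3g*), and for epithelial against stromal cells by −7.11 (*Aqp1*) and −5.11 (*Adgrf5*). These are genes of endothelium, and each lost its call when the 3 mixed stromal cells were left out. *Cdkn2c* differed by 3.80 for epithelial against stromal cells and kept its call.

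For ECs against immune cells, *Ets2* differed by 2.52, *Cit* by −3.29, and *G0s2* by 7.41, and for epithelial against immune cells *Nrm* differed by 3.97, *Cenpq* by 3.69, and *Ankrd33b* by 6.98. Of these, *Ets2*, *G0s2*, and *Ankrd33b* lost their call when 1 cell type per class was compared. For stromal against immune cells, *1500009L16Rik* differed by −5.11 (−0.72 in stromal and 4.39 in immune cells), *Dpp4* by 4.98, and *Pecam1* by 5.44, and the last 2 lost their call without the mixed cells.

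Outside the classes, 15 dividing cells were tied. Of these, 13 held no UMI of any class gene, and their median was 1354 UMIs with a median mitochondrial share of 0.580%. Of the 15, 3 were deep (7298 to 7982 UMIs, 6.48% to 8.92% mitochondrial UMIs, from mice 3 and 4). Of genes of B cells and their precursors, *Vpreb3* (54 UMIs), *Ebf1* (62), *Myb* (20), *Rag1* (11), *Ighm* (109), and *Cd79a* (23) were each found in 3 of the 15 cells and *Cd79b* (18) in 4, whereas *Vpreb1* and *Igll1* had 0 UMIs. The other 12 had a median of 1142 UMIs and a median mitochondrial share of 0.421%.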

How the results depend on the processing

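Of the values that answer a comparison, 253 kept their direction and side of the threshold or their size, 36 shares moved, and of the counts of genes 38 fell and 6 rose by over 1.5 times. Of single genes 1886 values kept them, 222 lost and 7 gained a call, and 23 turned sign. Over the 201 calls of all named and list genes, 81 were never lost or turned, and 35 turned sign at least once. The mouse as a block ended no call among the reported results other than that of *Cd3g* in immune cells. Shares moved with the threshold: with at least 2 UMIs they were 6.88% (ECs), 5.0% (stromal), 4.69% (immune), 9.87% (*Aplnr*-type), 13.9% (T cells), 2.57% (B cells), 7.53% (myofibroblasts), 2.33% (smooth muscle), and 0.251% (neutrophils), and with at least 8 UMIs 4.30%, 0.775%, and 1.97% for these classes, 6.30%, 5.99%, and 0.475% for *Aplnr*-type, T cells, and myofibroblasts. With doublets left out, shares were 4.56% (ECs), 0.709% (stromal), 2.18% (immune), 6.87% (*Aplnr*-type), and 6.93% (T cells), and stromal genes gave no test because sums fell under 5 cells. With 500 genes and 10% mitochondrial UMIs they were 3.75% (immune), 1.29% (stromal), and 9.40% (T cells), without a cell filter 3.35% (immune), with both genes detected 2.10% (immune) and 0.834% (stromal), and without mixed cells 1.01% (stromal). Thinned shares were 1.30% and 0.512% at 1000 UMIs and 4.95% and 6.21% at 5000 UMIs (ECs, immune), 0.764% at 5000 UMIs (stromal), and, with at least 1 UMI after thinning, 6.69%, 3.72%, 4.38%, and 5.17% (ECs, epithelial, stromal, immune).

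Genes past the threshold numbered, with 1 mouse left out, 517–577 in ECs, 1760–2724 in epithelial, 536–1041 in stromal, and 1921–2939 in immune cells. Within 1 type they were 1817 (AT2) and 1758 (T cells), and without mixed cells 548 (stromal). Differences between classes (in the order ECs–epithelial, ECs–stromal, ECs–immune, epithelial–stromal, epithelial–immune, stromal–immune) ranged with 1 mouse left out over 15–220, 31–359, 57–229, 9–489, 121–367, and 121–569. With 1 type per class they were 220, 447, 290, 155 (epithelial–immune), and 432 (stromal–immune), with DESeq2 928, 646, 1241, 1042 (epithelial–stromal), and 1401 (stromal–immune), without mixed cells 14 (ECs–stromal), 72 (epithelial–stromal), and 195 (stromal–immune), in deep cells 125 (ECs–immune), 254 (epithelial–immune), and 468 (stromal–immune), and with the stricter cell filter 127 (ECs–epithelial) and 404 (epithelial–immune). The splits of higher to lower calls also moved: 497 to 821 in ECs without doublets, 1560 to 1200 in epithelial cells without a gene filter, 749 to 1865 in deep immune cells, and 932 to 2683 in immune cells under the stricter cell filter.

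Signs turned without mixed cells for *Aplnr* (−4.00), *Gpihbp1* (−4.73), and *Kdr* (−5.96) in stromal cells and for *Dpp4* (−3.89) and *Pecam1* (−5.25) in stromal against immune cells. They turned with 1 type per class for *Aqp1* (0.54), *Cdkn1c* (−0.22), *Rtkn2* (0.86), and *Scgb1a1* (−0.21) in AT2 cells, *Nuak1* (0.85) in *Aplnr*-type ECs, *Ccnd1* (−7.38), *Cd3d* (−0.82), *Cd3e* (−0.69), *Cd3g* (−0.64), *Dusp1* (1.24), *Ets2* (0.95), *Gadd45b* (0.22), *Hspa1a* (−4.37), *Ier3* (0.92), and *Pfkp* (−0.66) in T cells, and *Ets2* (−1.28) for ECs against immune cells, and in deep immune cells for *Cd3d* (−0.032) and *Dusp1* (0.30). The *Cd3* genes, *Rtkn2*, and *Scgb1a1* also enter the choice of the cell type. Beyond fewer cells and samples in these subsets, the cause was not tested.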

Other observations

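Within single cell types, further genes changed in dividing cells (9545 genes tested with edgeR, 6.15% higher and 12.3% lower in T cells, 8.01% and 11% in AT2 cells, and 5.44% and 3.23% in *Aplnr*-type ECs). In dividing T cells, *Il7r*, the receptor of the survival cytokine IL-7, fell by 1.62 on the log2 scale, the CDK inhibitor *Cdkn1b* fell by 1.35, and the cyclin *Ccnd2* fell by 1.21. Of 11 glycolysis genes tested there, 4 were higher, among them *Pkm* (0.88), and 0 lower. In dividing AT2 cells, *Cdkn2c* (4.74), *Cdkn2d* (3.19), *Rb1* (1.53), and *Cdk4* (0.81) were higher, and *Btg1* (−1.34), *Btg2* (−1.20), and *Aldoa* (−1.30) were lower. In dividing *Aplnr*-type ECs, *Cdkn2c* (3.56) and *Cdkn2d* (3.01) were higher, and *Notch4*, an endothelial Notch receptor, was lower (−0.59), as was *Pfkl* (−1.02).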
